A study of Mus musculus with 16 samples.

Results

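The 31 genes described here make, import, move, store or export cholesterol, or control those steps, and they were chosen by name from the 55414 genes of the deposited count table. They comprise 8 enzymes of the mevalonate arm of synthesis, 11 enzymes from squalene to cholesterol, 4 genes of the SREBP control circuit, 6 genes of trafficking, uptake control and storage, and 2 efflux transporters. The set was named by role with earlier results of these data in view, so the counts and medians over its members are descriptions and support nothing by themselves. All 31 members passed the filter on low counts, as did 15693 genes in all.

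The libraries came from mouse lung endothelial cells (MLECs) of 4 independent isolations from *Rosa26-CreERT2;Eng fl/fl* mice on a C57BL/6 background that also carry the Immorto transgene, which immortalises cells conditionally. *Eng* encodes endoglin (ENG), a co-receptor for bone morphogenetic protein 9 (BMP9) on endothelial cells. From each isolation, KO cells were made with 4-OH-tamoxifen, which activates Cre from the ubiquitous *Rosa26* locus, while Ctrl cells received vehicle. Cells had been grown with interferon-γ and the TGF-β receptor kinase inhibitor SB431542, and were starved of serum overnight before treatment. Ctrl cells then received PBS or sENG(M):BMP9, in which a monomer of the soluble ENG ectodomain holds BMP9. Soluble ENG was given in large excess to keep this complex stable, and no group received soluble ENG alone. KO cells received PBS or pro:BMP9, in which the prodomain holds BMP9. Each ligand was dosed at 0.2 ng/ml, counted as growth factor domain, over 90 min. The 4 groups hold 4 libraries each, 16 in all, and a number shared by libraries marks their isolation. Loss of *Eng*, exposure to 4-OH-tamoxifen and, with ligand, the form of BMP9 and the excess of soluble ENG cannot be told apart. The methods describe induction of the deletion in each line before the cells were plated for treatment, but do not say whether the PBS-treated and ligand-treated wells of an isolation and genotype came from 1 induced culture. They are taken as 1 culture where cultures are named below, which would leave 4 independent cultures of each genotype.

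Cells sense cholesterol in the endoplasmic reticulum. When it is scarce, SCAP carries the precursor of SREBP2 to the Golgi, where it is cleaved to a transcription factor that switches on nearly every enzyme of synthesis, whereas INSIG proteins hold the SCAP complex back when sterol is plentiful. Oxysterols made when sterol is in excess activate the liver X receptors (LXRs), which switch on the exporters *Abca1* and *Abcg1* and *Mylip*, whose product IDOL is a ubiquitin ligase that limits the uptake of lipoproteins. In endothelial cells this balance also sets the cholesterol of the plasma membrane and its caveolae.

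The promoters of 4 members are printed because they hold, or lack in this window, the letters searched here for the elements through which these circuits are known to act. Each runs from 250 bases before to 50 bases after the annotated start of the canonical transcript, on the strand of the gene, read from GRCm39 with GENCODE annotation. *Hmgcs1* lies at chr13:120151732-120152031 on the plus strand, *Idi1* at chr13:8935669-8935968 on the plus strand, *Cyp51* at chr5:4154697-4154996 on the minus strand and *Abca1* at chr4:53159851-53160150 on the minus strand. Capitals mark the sterol regulatory element TCACNCCAC, the CCAAT box to which NF-Y, a partner of SREBP, binds, and an LXR element (a direct repeat of the nuclear receptor half-site) without its first base, each searched on both strands.
Hmgcs1: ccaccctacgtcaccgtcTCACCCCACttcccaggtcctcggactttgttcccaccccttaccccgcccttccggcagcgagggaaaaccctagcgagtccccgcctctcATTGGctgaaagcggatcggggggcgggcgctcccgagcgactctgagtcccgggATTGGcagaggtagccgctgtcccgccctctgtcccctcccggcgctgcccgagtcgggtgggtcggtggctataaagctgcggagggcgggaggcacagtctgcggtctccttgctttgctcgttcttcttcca
Idi1: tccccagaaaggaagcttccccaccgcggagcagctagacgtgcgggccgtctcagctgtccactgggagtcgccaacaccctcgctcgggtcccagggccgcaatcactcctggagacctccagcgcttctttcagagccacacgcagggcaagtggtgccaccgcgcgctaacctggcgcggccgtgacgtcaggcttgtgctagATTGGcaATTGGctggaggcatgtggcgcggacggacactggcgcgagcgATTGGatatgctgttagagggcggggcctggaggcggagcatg
Cyp51: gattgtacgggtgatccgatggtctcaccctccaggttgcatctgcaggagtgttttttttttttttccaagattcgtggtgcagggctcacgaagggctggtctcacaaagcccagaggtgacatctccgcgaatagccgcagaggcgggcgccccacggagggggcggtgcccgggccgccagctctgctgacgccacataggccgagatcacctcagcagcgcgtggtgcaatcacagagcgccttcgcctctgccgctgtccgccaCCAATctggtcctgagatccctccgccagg
Abca1: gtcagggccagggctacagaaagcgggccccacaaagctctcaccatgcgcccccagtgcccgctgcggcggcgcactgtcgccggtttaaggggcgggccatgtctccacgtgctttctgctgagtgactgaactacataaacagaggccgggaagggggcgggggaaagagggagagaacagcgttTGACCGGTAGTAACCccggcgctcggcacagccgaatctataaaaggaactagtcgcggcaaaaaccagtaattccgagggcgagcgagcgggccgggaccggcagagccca
*Hmgcs1* held the sterol regulatory element, as TCACCCCAC, starting 232 bases before the start site, and also 2 CCAAT boxes. *Idi1* held 3 CCAAT boxes, which appear as ATTGG because they lie on the other strand, and *Cyp51* held 1. *Abca1* held no CCAAT box but held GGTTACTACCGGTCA on the other strand, beginning 62 bases before its start site. The full LXR element, which contains the shortened one, matched no member, and it matched 0.0735% of 21770 protein-coding promoters. The shortened form was tried after the *Abca1* sequence had been seen, and it matched 1 of 31 members and 0.152% of all promoters. A CCAAT box stood in 23 of 31 member promoters (74.2%) and in 15 of 19 promoters of synthesis enzymes (78.9%), against 39.9% of all promoters. The sterol element TCACNCCAC stood in 1 of 31 (3.23%), against 1.34% of all promoters. The GC-rich SMAD element GGCGCC stood in 7 of 31 (22.6%), against 12.4%. No match says only that these letters were not in this window, and other forms of the sterol element were not searched.

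Library totals lay between 14869115 and 17242117 counts. *Eng* was at 432, 593, 375 and 439 CPM (counts scaled to library size) in isolations 1 to 4 of PBS-treated Ctrl cells and at 40.1, 50.5, 54.2 and 59.9 CPM in KO cells. With ligand it was at 652, 775, 524 and 611 CPM in Ctrl and at 115, 130, 122 and 114 CPM in KO cells, so KO lay below Ctrl in every isolation, as labelled, and *Eng* rose with ligand in both genotypes (log2 0.48 ± 0.09 in Ctrl and 1.23 ± 0.11 in KO cells, SE, adjusted p of 0.00163 and 2.8e-07 in edgeR's test). The BMP9 target genes *Id1*, *Smad6*, *Smad7* and *Atoh8* all rose with ligand in each genotype, with a median log2 fold change of 3.16 in Ctrl and 3.03 in KO cells. All 10 endothelial markers were expressed, and so were the 5 lymphatic endothelial markers, which summed to between 3613 and 7141 CPM in PBS-treated Ctrl cells. The 10 fibroblast and mural markers summed to between 110.6 and 814 CPM there, and isolation 2 was the lowest in every group. In KO cells in PBS they summed to between 107.8 and 719.5 CPM, and all 10 had a negative KO difference in the fit. Of these 10 markers, 1 was called lower in KO cells in PBS, 2 with ligand and 5 in the average of both conditions. Of all genes, 0.0191%, 0.166% and 0.682% were called lower there. That average takes each culture in 2 libraries, and with the counts of each culture summed 1 of the 10 passed, where 0.121% of all genes did. *Dcn*, named after its values were seen, was called in all 3 comparisons, with an average log2 difference of -0.61 ± 0.06 (SE, adjusted p of 0.000118 in edgeR's test and 0.0335 with the counts of each culture summed). The 7 epithelial markers summed to between 67.5 and 213.8 CPM and the 7 immune markers to between 34.2 and 47.8 CPM in PBS-treated Ctrl cells. Of these markers, *Sftpc* had a count of 0 in all 16 libraries, *Epcam* had at most 4 counts, *Ptprc* and *Itgam* at most 5, and *Adgre1* and *Cd3e* at most 6. Others were expressed. Among the epithelial markers, *Krt18* had 781 to 2808 counts per library, *Krt19* 77 to 1338 and *Krt8* 26 to 756. Among the immune markers, *Cd68* had 460 to 630 and *Lyz2* 48 to 233.

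Levels between genes were compared as CPM per kilobase of deposited gene length, in PBS-treated Ctrl cells. *Npc2*, which carries cholesterol within the lysosome, stood highest at a mean of 113.4 CPM per kilobase. Next came *Insig1* at 29.0, *Srebf2* at 23.3 and *Srebf1* at 23.1 CPM per kilobase, and the ranges of these 3 genes over the isolations overlapped. *Abca1* lay at 18.2 CPM per kilobase on average, but with a range from 5.08 to 28.3 it spanned most of the list. *Tm7sf2*, a sterol reductase, and *Fdps*, farnesyl diphosphate synthase, were lowest at 1.27 and 0.526 CPM per kilobase. Counts of *Fdps* lay between only 12 and 68 in the 16 libraries, and processed copies of this gene and 2 overlapping gene models on its strand make its counts uncertain. *Tm7sf2* overlaps *Vps51* on the same strand and is uncertain for that reason, and *Srebf1*, *Srebf2* and *Abcg1* also share sequence with a gene model on their own strand. A gene on the other strand overlaps 10 members, among them *Hmgcs1*, *Idi1* and *Cyp51*. The libraries were stranded, but the strand setting of the counting is not given in the sources used here, and if strand was not used, reads of such a pair cannot be told apart. The efflux genes differed in how much the isolations varied in PBS-treated Ctrl cells, from 5.58-fold between the lowest and highest library for *Abca1* to 1.13-fold for *Abcg1*, which were the widest and narrowest spreads of the 31.

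**Figure D1:**
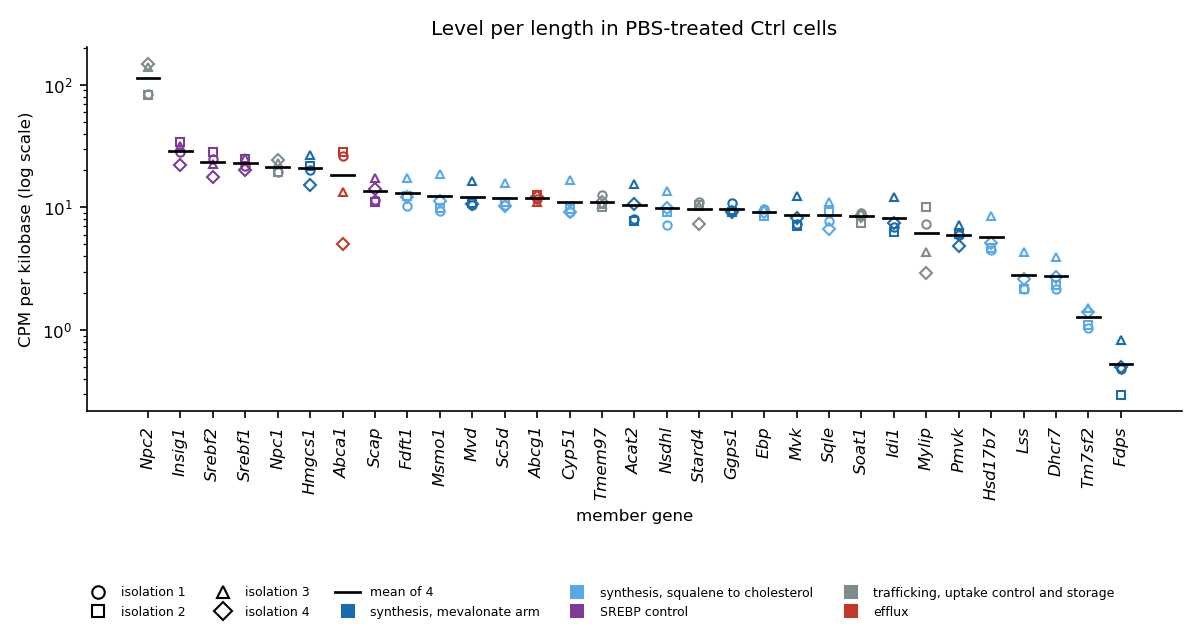
Level of each member in PBS-treated Ctrl cells, as CPM per kilobase of gene length on a log axis, with 1 symbol per isolation, a bar for the mean of 4 and colours for the role. *Npc2* stands highest at a mean of 113.4 CPM per kilobase, *Fdps* lowest at 0.526, and the 4 isolations of *Abca1* lie between 5.08 and 28.3.

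The comparison of KO with Ctrl cells asks what the loss of *Eng* left changed in these genes before and after ligand. Synthesis enzymes were lower in KO cells, by a median log2 difference of -0.57 over the 19 enzymes in PBS and -0.61 with ligand, while the median of all tested genes lay at 0.00 in each. KO was lower in all 4 isolations for 15 of 19 enzymes (78.9%) in PBS, against 7.86% of all tested genes, and for 15 of 19 with ligand, against 7.35%. Their size was uneven. In PBS the median over the enzymes was -0.30 in isolation 1, -0.16 in isolation 2, -1.26 in isolation 3 and -0.60 in isolation 4, and with ligand it was -0.32, -0.16, -1.28 and -0.63.

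No member passed an adjusted p of 0.05 in edgeR's quasi-likelihood test in PBS, where 0.0191% of all genes passed, or with ligand, where 0.255% passed, 0.0892% higher and 0.166% lower. At an unadjusted p under 0.05, 19 members were lower and 1 higher in PBS, where 3.64% of all genes were lower and 3.18% higher, and 21 were lower and 1 higher with ligand, where 4.59% were lower and 4.67% higher. DESeq2 with the isolation as a block called 1 member in PBS and 3 with ligand, all lower in KO cells, where it called 0.0319% and 0.646% of genes lower. Averaged over PBS and ligand, 17 members were lower and none higher, against 0.682% of all genes called lower, 0.701% higher and 1.38% in either direction. That average, and the SE given with it below, counts each culture in 2 libraries. With cultures summed the SE was 0.19 for *Idi1*, 0.20 for *Cyp51* and 0.17 for *Insig1*, wider than the values printed below. It was not wider for every member, with 0.05 for *Mylip*. With the counts of each culture summed, so that 4 cultures of each genotype were compared, none of the 31 passed (0.121% of all genes did), although 21 were lower and 1 higher at an unadjusted p under 0.05, against 4.93% of all genes lower and 4.11% higher. Values below are therefore given for single libraries, and for the genes described in full the adjusted p of the average is followed by that of the summed cultures. In these bulk samples, fewer cells that express a gene and less RNA per cell cannot be told apart.

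*Idi1* (ENSMUSG00000058258, chr13:8935537-8942487 in GRCm39), the isopentenyl diphosphate isomerase of the mevalonate arm, had one of the widest gaps. It was at 24.5, 21.9, 42.6 and 26.1 CPM in isolations 1 to 4 of PBS-treated Ctrl cells and at 14.1, 17.1, 10.9 and 13.8 CPM in KO cells. With ligand the values were 20.3, 18.8, 39.0 and 24.8 CPM in Ctrl and 10.9, 16.3, 10.8 and 13.9 CPM in KO cells. The KO libraries all lay below every Ctrl library in both conditions, and isolation 3 was highest in Ctrl and lowest in KO. The log2 difference averaged over PBS and ligand was -0.98 ± 0.15 (SE), with an adjusted p of 0.00536 in edgeR's test and of 0.127 with cultures summed.

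*Hmgcs1* (ENSMUSG00000093930, chr13:120151915-120169796), the cytosolic synthase that makes HMG-CoA, is the member whose printed promoter held the sterol element. It was at 93.1, 101, 122 and 70.2 CPM in PBS-treated Ctrl cells and at 74.5, 90.0, 42.3 and 43.7 CPM in KO cells. The groups overlapped, although KO was lower within each isolation. The log2 difference was -0.65 ± 0.19 in PBS and -0.65 ± 0.19 with ligand (SE, adjusted p of 0.411 and 0.177 in edgeR's test). Averaged over both it was -0.65, with an adjusted p of 0.0204 in edgeR's test and of 0.252 with cultures summed.

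The rest of the mevalonate arm divided in the same fit. *Mvd*, which decarboxylates mevalonate diphosphate, and *Acat2*, which joins acetyl-CoA units, had average KO differences of -0.57 ± 0.11 and -0.63 ± 0.12 (SE), and both were lower in KO in 4 of 4 isolations. With cultures summed their SE was 0.14 and 0.16, and each had an adjusted p of 0.209 in edgeR's test. *Fdps* had -1.03 ± 0.24, on the few counts given above (SE, adjusted p of 0.0408 in edgeR's test and 0.254 with cultures summed). The kinases *Mvk* and *Pmvk* stood at -0.26 and -0.36, with adjusted p of 0.155 and 0.0708 in edgeR's test and of 0.455 and 0.238 with cultures summed. *Ggps1*, which leads off the sterol branch to geranylgeranyl diphosphate, stood apart with a difference of 0.00 ± 0.03. Its KO libraries in PBS lay between 43.4 and 47.8 CPM, within the Ctrl range of 43.3 to 51.1 CPM.

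Of the 11 enzymes from squalene to cholesterol, 9 were among the 17 members lower in the average of PBS and ligand. *Cyp51* (ENSMUSG00000001467, chr5:4131145-4154746), the lanosterol demethylase, was at 40.6, 42.7, 73.4 and 40.2 CPM in PBS-treated Ctrl cells and at 26.2, 32.2, 21.0 and 23.1 CPM in KO cells. With ligand it was at 38.5, 42.4, 76.2 and 40.9 CPM in Ctrl and at 26.0, 35.9, 17.8 and 20.7 CPM in KO cells. The groups did not overlap in either condition, and Ctrl isolation 3 stood far above the other Ctrl libraries. The average log2 difference was -0.94 ± 0.15 (SE, adjusted p of 0.00753 in edgeR's test and 0.159 with cultures summed).

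*Sqle* (ENSMUSG00000022351, chr15:59186926-59203041), the squalene epoxidase and a rate-limiting step of the pathway, was at 42.6, 50.7, 61.0 and 36.8 CPM in PBS-treated Ctrl cells and at 32.9, 43.7, 20.6 and 18.6 CPM in KO cells. Here the groups overlapped, since KO isolation 2 lay above Ctrl isolations 1 and 4, but KO was lower within each isolation. The average difference was -0.74 ± 0.13 (SE, adjusted p of 0.00892 in edgeR's test and 0.178 with cultures summed).

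The other 7 of these 9 enzymes were *Fdft1*, *Lss*, *Msmo1*, *Nsdhl*, *Hsd17b7*, *Sc5d* and *Dhcr7*, which act between squalene synthesis and the last reduction to cholesterol. Their average differences lay between -0.71 for *Lss*, the lanosterol synthase, and -0.30 for *Dhcr7*, the last reductase. Each was lower in KO in 4 of 4 isolations on that average. *Tm7sf2* had -0.45 with an adjusted p of 0.0815 in edgeR's test and of 0.353 with cultures summed. *Ebp*, the sterol isomerase, stood apart at -0.06 ± 0.07, and its PBS libraries lay between 19.5 and 22.2 CPM in Ctrl and between 16.97 and 22.9 CPM in KO cells.

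Isolation 3 weighed most in these differences. Of the 19 enzymes, 18 had their highest PBS-treated Ctrl value in isolation 3, all but *Ggps1*, whereas 9 had their lowest PBS-treated KO value there. In KO cells, 14 enzymes were highest in isolation 2. Without isolation 3, 10 members instead of 17 were called in the average of PBS and ligand. Of all genes, 0.282% instead of 0.682% were then called lower. Without isolation 1, 2 or 4 the members called were 13, 17 and 12, against 0.267%, 0.5% and 0.491% of all genes called lower. Without isolation 3 the median over the 31 members moved from -0.45 to -0.27. Isolation 3 also had the lowest sum of the 10 endothelial markers, 3395 CPM in PBS-treated Ctrl cells and 3630 CPM in KO cells, and its fibroblast and mural markers summed to 805.5 and 719.5 CPM. Isolation 2, with the smallest KO difference in synthesis enzymes, had fibroblast and mural sums of 110.6 and 107.8 CPM. The sums were 814.5 and 606.1 CPM in isolation 1 and 623.1 and 429.6 CPM in isolation 4. Both had median enzyme differences between those of isolations 2 and 3, so the sums and the differences did not rank the isolations alike. The part of these markers, including those called above, in the result was not tested.

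**Figure D2:**
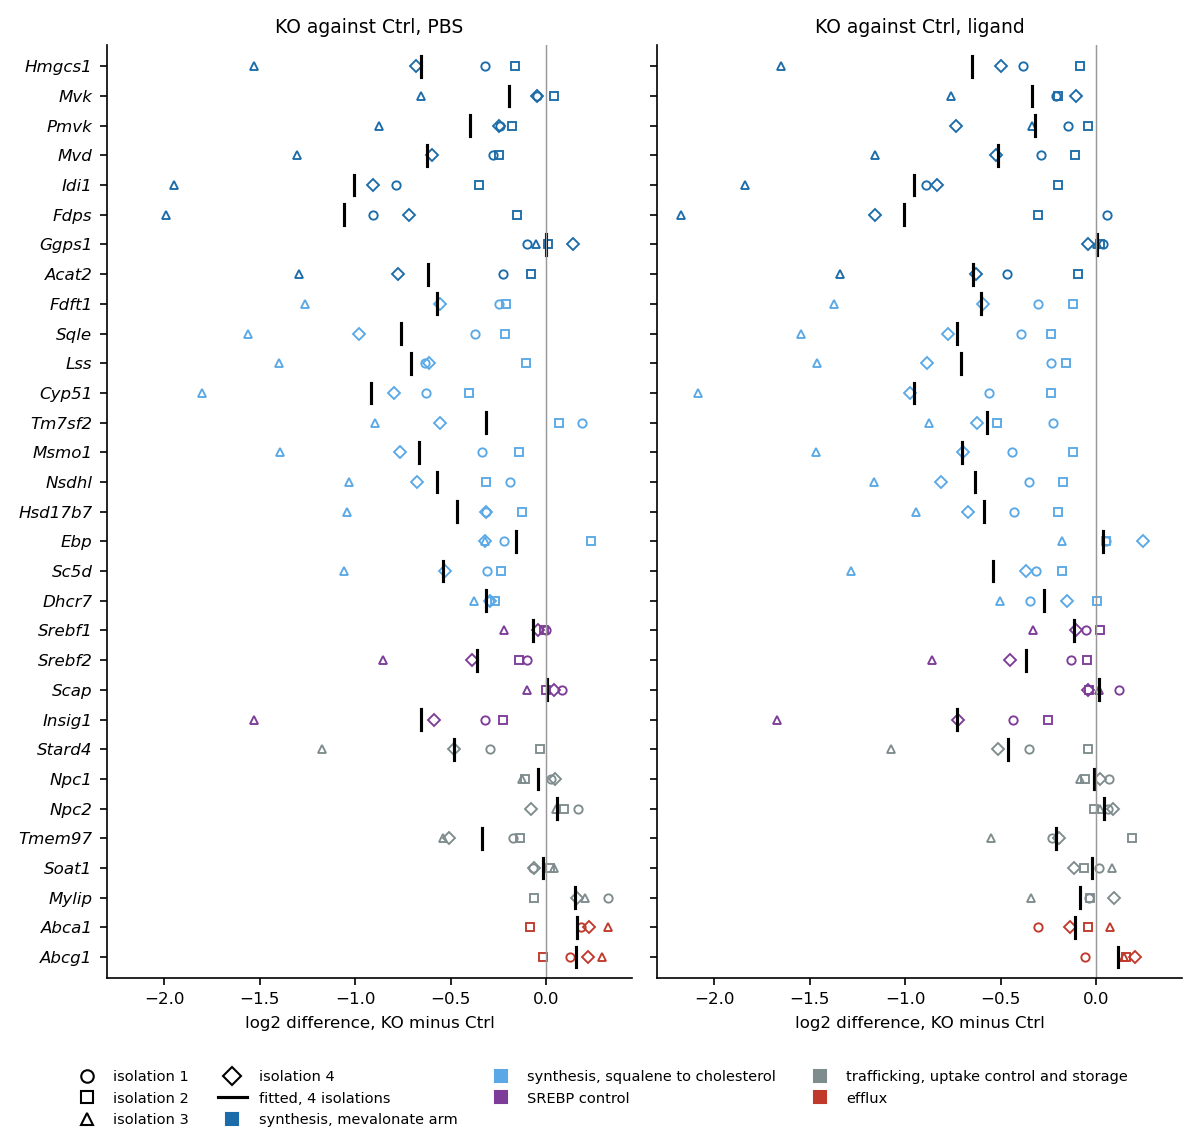
Log2 difference between KO and Ctrl cells for each member in PBS (left) and with ligand (right), with 1 symbol per isolation, a black bar for the fitted value over 4 isolations and colours for the role. Synthesis enzymes lie to the left of 0, with isolation 3 farthest left at a median of -1.26 in PBS, while *Ggps1*, *Ebp* and the efflux genes lie near 0.

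In the SREBP circuit, the gene of the transcription factor and that of its retention protein were lower in KO cells, and those of the escort and of SREBP1 differed little. *Srebf2* (ENSMUSG00000022463, chr15:82031382-82089580), which encodes SREBP2 and whose locus also holds *Mir33*, was at 179, 203, 161 and 127 CPM in PBS-treated Ctrl cells and at 167, 184, 89.2 and 97.03 CPM in KO cells. *Insig1* (ENSMUSG00000045294, chr5:28276361-28283660), itself a target of SREBP2, was at 87.4, 105, 98.4 and 68.0 CPM in Ctrl and at 70.0, 89.9, 34.0 and 45.2 CPM in KO cells. For each gene the groups overlapped, while KO was lower in 4 of 4 isolations, most so in isolation 3. The average differences were -0.36 ± 0.08 for *Srebf2* and -0.69 ± 0.13 for *Insig1* (SE, adjusted p of 0.0202 and 0.012 in edgeR's test). With cultures summed the adjusted p was 0.254 and 0.206.

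*Scap*, the sterol-sensing escort of SREBP, had an average difference of 0.01 ± 0.03. *Srebf1* had -0.09 ± 0.04, with an adjusted p of 0.279 in edgeR's test and of 0.599 with cultures summed.

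**Figure D3:**
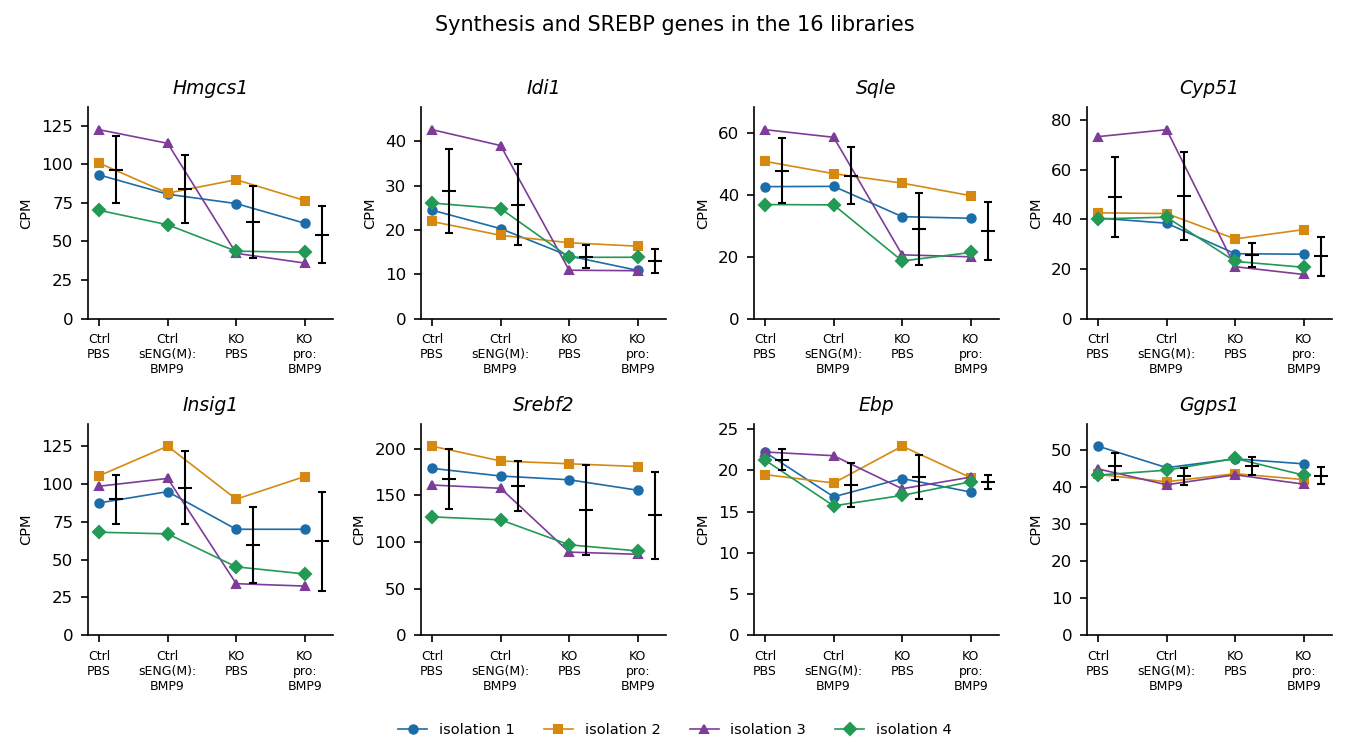
CPM of 6 synthesis genes and 2 SREBP genes in the 16 libraries, with lines joining the libraries of 1 isolation and black bars for the mean ± SD of each group (n = 4). *Idi1* and *Cyp51* show Ctrl isolation 3 at 42.6 and 73.4 CPM in PBS and all KO libraries below the Ctrl libraries, whereas the KO and Ctrl libraries of *Ebp* and *Ggps1* overlap in both conditions.

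Among the trafficking genes, *Stard4*, which carries sterol between membranes and is a target of SREBP2, was at 62.2, 58.9, 56.9 and 40.6 CPM in PBS-treated Ctrl cells and at 50.6, 57.6, 25.2 and 29.0 CPM in KO cells. KO was lower in 4 of 4 isolations, by as little as 0.03 on the log2 scale in isolation 2, and the groups overlapped. Its average difference was -0.47 ± 0.10 (SE, adjusted p of 0.0211 in edgeR's test and 0.251 with cultures summed). *Tmem97*, which binds NPC1 and sterols, had -0.27 ± 0.08, with an adjusted p of 0.114, and of 0.35 with cultures summed. *Npc1* and *Npc2*, which release cholesterol from the lysosome, had -0.03 ± 0.03 and 0.05 ± 0.03, and *Soat1*, which esterifies cholesterol for storage, had -0.02 ± 0.03. *Mylip* stood at 0.03 ± 0.06.

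The efflux genes differed little between KO and Ctrl cells, and neither passed the test in PBS or with ligand in the fit to all 16 libraries. *Abca1* (ENSMUSG00000015243, chr4:53030787-53159895), which loads cholesterol onto apolipoprotein A-I, had a KO difference of 0.16 ± 0.08 in PBS and of -0.11 ± 0.08 with ligand. *Abcg1* (ENSMUSG00000024030, chr17:31276649-31336962), which exports cholesterol to lipoprotein particles, had 0.15 ± 0.05 in PBS and 0.11 ± 0.05 with ligand (SE, adjusted p of 0.528 and 0.537 in edgeR's test). With cultures summed, *Abcg1* had 0.13 ± 0.04, with an unadjusted p of 0.0101 and an adjusted p of 0.33 in edgeR's test. It was the 1 member higher in KO at an unadjusted p under 0.05 there, while *Abca1* had -0.002 ± 0.05. Without a filter on low counts, *Abca1* passed as higher in PBS (adjusted p of 0.0291 in edgeR's test).

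The comparison of ligand with PBS asks which of these genes responded to BMP9 within 90 min. In the fit to all 16 libraries with the isolation as the block, both exporters and *Mylip* rose in Ctrl cells, and *Abca1* rose in KO cells. No synthesis enzyme passed that test in either genotype. In Ctrl cells 3 members passed the test, all higher, where 9.69% of all genes passed, 5.86% higher and 3.83% lower. In KO cells 1 passed, where 5.59% of all genes passed, 3.68% higher and 1.92% lower. The median over the 19 enzymes was -0.03 in Ctrl and -0.07 in KO cells.

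*Abca1* had the largest fold change of the 31 members in each genotype. In Ctrl cells it went from 270.5, 293, 139 and 52.6 CPM in PBS to 480.3, 444, 179 and 79.7 CPM with sENG(M):BMP9. In KO cells it went from 306, 277, 174 and 61.4 CPM in PBS to 388, 430.2, 188 and 72.5 CPM with pro:BMP9. Every isolation rose in each genotype, while the groups overlapped because the isolations differed more than the treatments. The increase was 1.52-fold in Ctrl (log2 0.61 ± 0.08 SE, adjusted p of 1.92e-05 in edgeR's test) and 1.26-fold in KO cells (log2 0.34 ± 0.08, adjusted p of 0.0104). The KO response was smaller by 0.27 ± 0.11 on the log2 scale, and smaller in 3 of 4 isolations. The test of that difference gave an unadjusted p of 0.0226 and an adjusted p of 1. No member passed this test, nor did any gene, with 1 member and 565 genes (3.6% of all) under an unadjusted p of 0.05 in edgeR and no member called by DESeq2. Without isolation 2 the increase of *Abca1* in KO cells was 0.23 on the log2 scale and no longer passed.

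*Mylip* (ENSMUSG00000038175, chr13:45543218-45565498), a target of LXR like both exporters, went from 23.6, 32.6, 13.9 and 9.48 CPM in PBS to 36.7, 39.3, 20.6 and 9.93 CPM in Ctrl cells. In KO cells it went from 29.5, 31.2, 16.03 and 10.6 CPM to 35.7, 38.4, 16.2 and 10.6 CPM. Isolations 1 and 2 rose in each genotype, isolation 3 rose clearly in Ctrl cells, and isolation 4, with the lowest level, hardly moved. The log2 fold changes were 0.41 ± 0.09 in Ctrl (SE, adjusted p of 0.00366 in edgeR's test) and 0.17 ± 0.09 in KO cells (adjusted p of 0.402). The difference of both responses was -0.23 ± 0.12, with an unadjusted p of 0.0738. Without isolation 1 the increase in Ctrl cells was 0.31 and did not pass.

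*Abcg1* went from 85.8, 91.7, 81.2 and 88.5 CPM to 108, 94.2, 101 and 98.3 CPM in Ctrl cells, and from 93.5, 90.5, 99.6 and 103 CPM to 104, 105, 112 and 113 CPM in KO cells. In each genotype every ligand-treated library lay above every PBS-treated library. The log2 fold changes were 0.21 ± 0.05 (SE, adjusted p of 0.0118 in edgeR's test) and 0.17 ± 0.05 (adjusted p of 0.0749). Without isolation 1 or isolation 3 the Ctrl change was 0.16 or 0.18 and did not pass. Averaged over genotypes, these 3 genes and *Soat1*, at 0.10 ± 0.03, passed (4 of 31, where 13.1% of all genes passed, 7.46% higher and 5.65% lower).

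**Figure D4:**
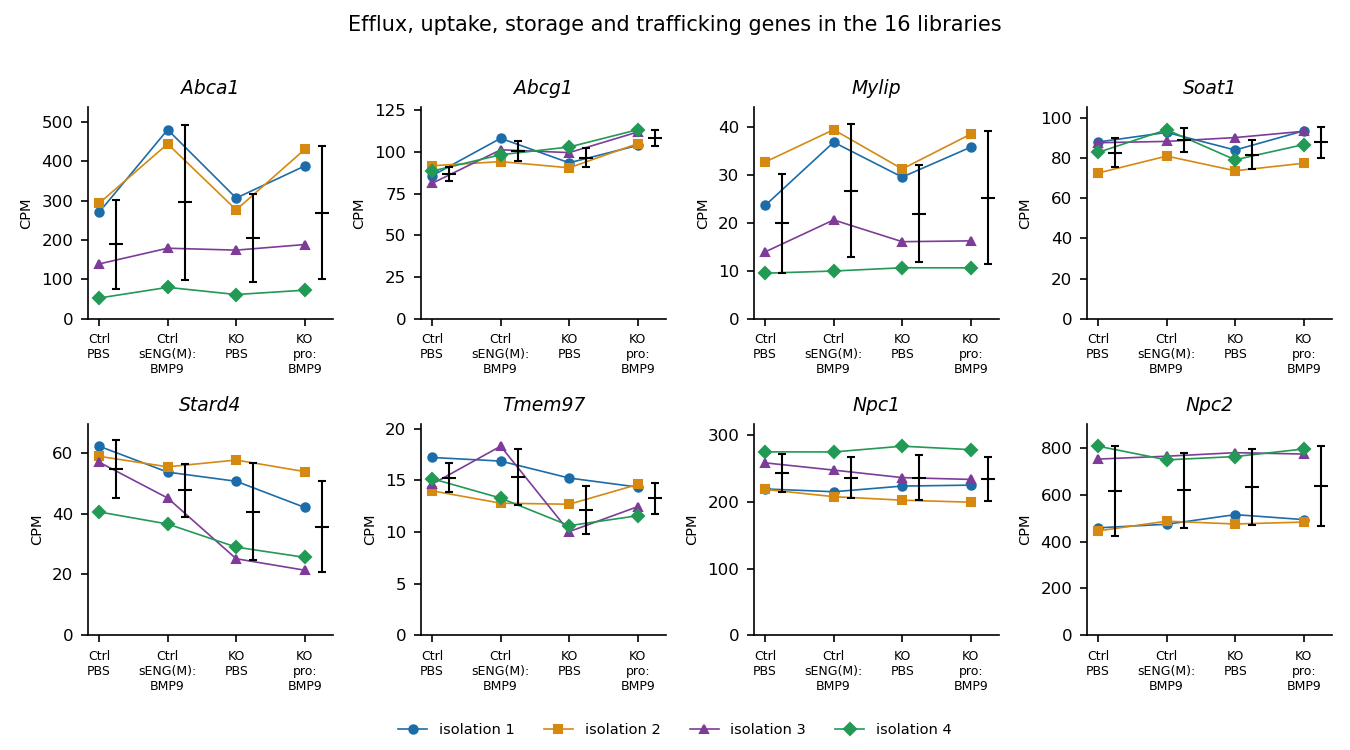
CPM of the 2 efflux genes and the 6 trafficking, uptake control and storage genes in the 16 libraries, with lines joining the libraries of 1 isolation and black bars for the mean ± SD of each group (n = 4). *Abca1* runs from 52.6 CPM in isolation 4 to 293 CPM in isolation 2 in PBS-treated Ctrl cells and rises with ligand in every isolation.

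Small decreases of 3 SREBP2 targets passed when each culture was its own block, which pairs the PBS-treated and ligand-treated wells of 1 culture. In that fit, chosen after the data had been seen, 11.3% of all genes passed in Ctrl and 6.34% in KO cells. *Hmgcs1* fell by 0.21 on the log2 scale in Ctrl and by 0.19 in KO cells (adjusted p of 0.00459 and 0.0195 in edgeR's test). *Msmo1*, the C-4 methylsterol oxidase, fell by 0.19 and 0.22 (0.0212 and 0.0241), and *Stard4* fell by 0.20 and 0.19 (0.0133 and 0.0406). All 3 genes were lower with ligand in 4 of 4 isolations of each genotype. The other synthesis enzymes and *Insig1* did not pass in that fit, and not all of them fell. *Insig1* stood at 0.11 in Ctrl and 0.01 in KO cells and *Dhcr7* at 0.12 and 0.16, while *Idi1* stood at -0.17 and -0.11. The lowest fitted value of the 31 members in Ctrl cells with the isolation as the block belonged to *Ebp*, at -0.23 ± 0.09 and lower in 4 of 4 isolations, but it passed in neither fit (SE, adjusted p of 0.155 and of 0.108 with the culture as the block). In all 16 libraries with the isolation as the block, the changes of *Hmgcs1*, *Msmo1* and *Stard4* were of like size. They did not pass, with adjusted p between 0.482 and 0.806 in edgeR's test. In the planned fit to only the 8 libraries of each comparison, these 3 genes passed in both genotypes. Of all genes, 10.5% passed there in Ctrl and 7.25% in KO cells. The adjusted p of the 3 genes lay between 0.0068 and 0.0425 in edgeR's test. *Abcg1* passed in KO cells in the culture-block fit (adjusted p of 0.0328), so that there 3 members rose and 3 fell in Ctrl, and 2 rose and 3 fell in KO cells.

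**Figure D5:**
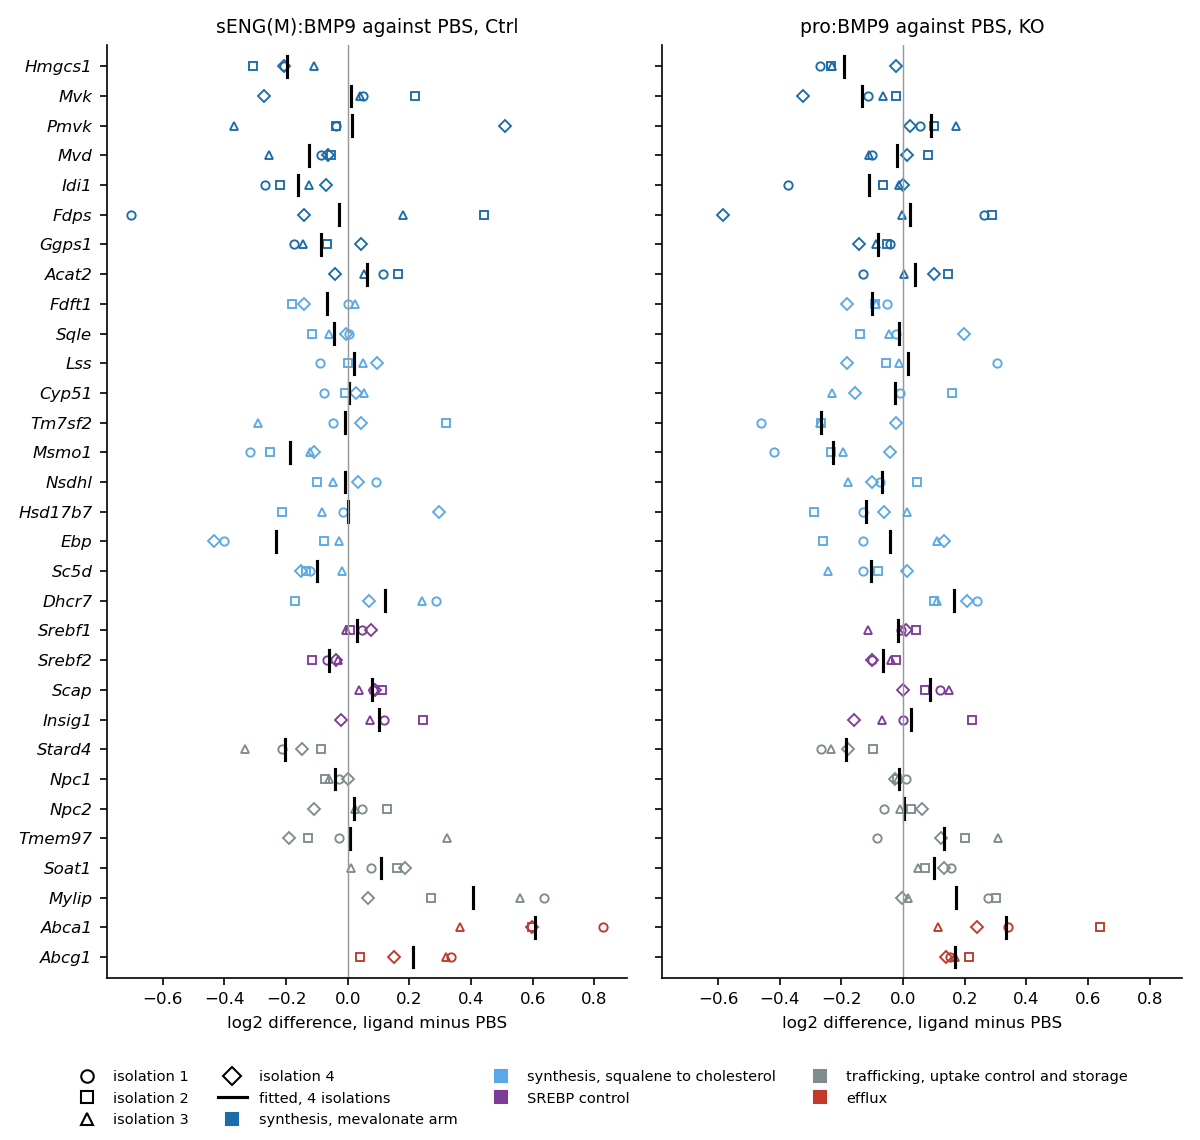
Log2 difference between ligand and PBS for each member in Ctrl (left) and KO cells (right), with 1 symbol per isolation, a black bar for the fitted value over 4 isolations and colours for the role. *Abca1* lies farthest to the right at 0.61 in Ctrl and 0.34 in KO cells, and most synthesis enzymes lie near 0.

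Other genes of the same circuits were read from the same fit. Of 16 tested genes of further uptake and trafficking, 2 were lower and none higher in the KO average of PBS and ligand, where 0.682% of all genes were lower. One of them, *Lrp8*, a lipoprotein receptor, had an average KO difference of -0.47 ± 0.08 (SE, adjusted p of 0.00765 in edgeR's test, and of 0.0994 with cultures summed).

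With ligand, 1 of these 16 genes rose and 1 fell in each genotype. Of all genes, 5.86% rose and 3.83% fell in Ctrl cells, and 3.68% rose and 1.92% fell in KO cells. The gene of the 16 that fell was *Stard5*, a sterol carrier, by 0.32 ± 0.06 in Ctrl and 0.27 ± 0.06 in KO cells. Of 14 LXR and oxysterol genes, 13 were tested, and those named here were picked because they passed in some comparison. *Rxra*, the partner of LXR, rose by 0.26 ± 0.05 and 0.17 ± 0.05, and *Ch25h*, which makes 25-hydroxycholesterol, fell by 0.24 ± 0.07 and 0.32 ± 0.07. None of the 9 tested genes of SREBP processing and sterol-regulated degradation passed in any of the 7 comparisons.

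The fatty acid genes that SREBP1 is known to drive were also lower in KO cells. Of 13, 12 were tested, 9 were lower in the KO average of PBS and ligand and none was higher, where 0.682% of all genes were lower. With cultures summed none of the 12 passed, 11 of them being lower at an unadjusted p under 0.05, where 4.93% of all genes were lower. *Elovl6*, a fatty acid elongase, was at 22.1, 23.9, 28.0 and 13.2 CPM in PBS-treated Ctrl cells and at 16.5, 17.3, 12.9 and 7.66 CPM in KO cells, and was the only gene of these further lists to pass between KO and Ctrl cells with ligand, at -0.66 ± 0.13 (SE, adjusted p of 0.0414 in edgeR's test). Its KO libraries were lower within each isolation, and the groups overlapped. The others were *Fads1*, *Fads2*, *Scd1*, *Scd2*, *Acss2*, *Acly*, *Fasn* and *Me1*, with differences between -0.57 for *Scd2* and -0.18 for *Me1*. None of the 12 passed with ligand against PBS in either genotype.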

How the data were processed

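RNA from MLECs of 4 isolations was sequenced in 16 libraries, grouped by their labels into 4 groups of 4. The authors deposited raw read counts per gene without normalisation. Per the labels, stranded poly-A libraries were aligned to GRCm39, and the submitters' processing notes name HISAT2 2.0.5, featureCounts 1.5.0-p3 and DESeq2 1.26.0. The annotation release is not given in the sources used here.

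Library totals lay between 14869115 and 17242117, and none of the 24 pairs of libraries within a group agreed within sampling noise. Counts were tested in R 4.3.3 with edgeR 4.0.16: filterByExpr (minimum count 10, minimum total 15), TMM, and quasi-likelihood fits to all 16 libraries with the isolation as a block. Adjusted p-values are Benjamini-Hochberg values over 15693 genes, with a threshold of 0.05. The same isolation number marks cells of the same isolation, and deviations of same-numbered libraries from their group means correlated at 0.67 or more (24 pairs). CPM values use TMM library sizes, and log2 values of single isolations a prior count of 2. There were 7 comparisons: ligand against PBS in each genotype, KO against Ctrl in each condition, the difference of responses, and both averages. The fit was tested on simulated counts. SE is the standard error of the fitted value.

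The members, lists and motifs were chosen with earlier results of these data known. Named genes are the 31 members, *Eng*, 4 BMP9 targets, and genes of further sterol lists that passed in any comparison, of which some are not reported here. Alternatives were no block, DESeq2 1.42.0, RLE factors, other filters, a length correction, only the 8 libraries compared, each isolation left out, and the authors' named steps (quantile normalisation, ComBat in sva 3.50.0, DESeq2). Added after seeing the data were a block per culture and counts summed per culture. Promoters were read from GRCm39 with GENCODE annotation.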

Additional observations from a re-analysis of the deposited data

Results flagged for a closer look

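Each member was checked in each group of 4 libraries for a library that stood apart, by the gap to its nearest neighbour relative to the range of the group. Of 124 such groups, 10 held one, where chance alone marks about 1 in 20 groups. Ctrl isolation 3 stood high in 8 of them. In PBS it was far above the other Ctrl libraries for *Mvd* (30.3 CPM), *Cyp51* (73.4 CPM), *Hsd17b7* (43.8 CPM) and *Sc5d* (77.0 CPM). With ligand it was far above them for *Mvd* (25.3 CPM), *Fdft1* (72.5 CPM), *Cyp51* (76.2 CPM) and *Sc5d* (76.0 CPM). In KO cells, *Nsdhl* stood high in isolation 2 with ligand (21.8 CPM) and *Hsd17b7* stood low in isolation 1 in PBS (18.5 CPM). The PBS and ligand libraries of Ctrl isolation 3 share their isolation, so their values are not independent.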

How the results depend on the processing

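No called value changed direction under any alternative. Without the replicate block, no member was called in Ctrl or KO cells with ligand (0 and 0, where 1.06% and 0.58% of all genes were), 1 was called in the average ligand response (2.37%) and 0 in the KO average (0.00637%), and the pairing changed no other count. Without a filter on low counts, 6 members were called with ligand in Ctrl (6.02% of all genes), 4 with ligand in KO (3.76%), 17 between KO and Ctrl in PBS (0.695%), 18 with ligand (1.76%), and 1 for the difference of responses (0.177%). With only the 8 libraries of a comparison these counts were 6 and 5 for the ligand responses (10.5% and 7.25%) and 1 between KO and Ctrl with ligand (0.367%). The steps the authors name gave 2 with ligand in KO (7.89%), 14 between KO and Ctrl in PBS (0.645%) and 16 with ligand (2.9%). DESeq2 with the block gave 1 and 3 between KO and Ctrl (0.0446% and 1.38%), and the length correction gave 4 there with ligand (0.491%). In the KO average, the authors' steps called 20 members lower and 1 higher, the length correction 17 and 1, and the fit without a filter 21 and 1. Of all genes, 1.53%, 0.618% and 1.02% were called lower there, and 1.77%, 1.09% and 1.02% higher. With a block per culture, added after seeing the data, 6, 5 and 9 members were called for the Ctrl, KO and average ligand responses (11.3%, 6.34% and 14.7%), and with counts summed per culture 0 in the KO average (0.121%). Leaving out each isolation in turn gave 1 to 3 members with ligand in Ctrl (6.73% to 8.87% of all genes). With ligand in KO it gave 0 to 1 (3.63% to 4.75%), and in the average ligand response 2 to 5 (9.48% to 11.9%). Between KO and Ctrl it gave 0 to 1 with ligand and 10 to 17 in the average, all lower in KO cells. Of all genes, 0.0382% to 0.287% and 0.267% to 0.5% were called lower there. The median over members ran from -0.024 to 0.0044 in Ctrl and from -0.066 to 0.0015 in KO cells with ligand. The causes were not tested, except that fewer libraries enter where cultures are summed or an isolation is left out. Of single genes, 67 values fell short of the threshold under an alternative and 237 kept their call. *Fdps* had 12 to 68 counts per library, the lowest counts of the 31 members.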
